A study of Rattus norvegicus with 35 samples.

Results

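Complement and coagulation proteins of the liver are plasma proteins that hepatocytes make and secrete, and the genes of this group were followed in rat liver across 5 doses of the flame retardant TBB and its vehicle. The group was named as 33 gene symbols, and a gene entered when a probe set of the array was annotated with its symbol alone; the probe set with the highest mean over all arrays then stood for it. By this rule 28 genes of the 14217 with a single-symbol probe set were measured. F7, F11 and F13b were listed with no probe set in the annotation used here. Cfb shared its 4 probe sets with another symbol and Kng1 its 1 probe set, so neither was read. Of the 28 genes, 25 had 1 probe set and 3 (Masp1, Masp2 and Mbl2) had several.

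The rats were male Sprague Dawley animals aged 7 weeks when dosing began, and they received TBB, a brominated benzoate ester, by gavage in corn oil at 5 ml/kg on 5 consecutive days. The groups were vehicle (corn oil alone, 0 mg/kg, n = 5) and 0.05, 0.55, 5.50, 55 and 550 mg/kg of TBB (n = 6 each), 35 arrays in all. The left liver lobe was taken 1 day after the last dose, and each array gave log2 expression values for whole-tissue RNA, so fewer cells of a type and less RNA per cell cannot be told apart. Whether every array is a different rat is not stated in the labels; if it is not, the p-values reflect technical spread between samples rather than spread between rats.

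The complement system is a cascade of plasma proteases and binding proteins that tags microbes and damaged cells. It starts from antibody, from lectins that recognise sugars, or spontaneously, passes through C3, and ends in a pore built from C5 to C9. Coagulation is a second protease cascade that ends in thrombin and fibrin, held in check by serpins and the protein C system and undone by plasmin. Hepatocytes supply most of both sets of proteins to blood, several of them are acute phase proteins, and several clotting factors need a vitamin K-dependent modification before they work.

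The tissue read as liver. The 12 measured hepatocyte markers, among them Alb and Apob, had a mean log2 level of 13.11 to 13.25 in the vehicle arrays. In vehicle the 28 genes lay between percentile 90.4 (C6) and 99.9 (C3, Serpinc1, Vtn and Ahsg) of all 31042 probe sets tested. Mean log2 levels over the arrays spanned 8.71 (C6) to 13.85 (Ahsg); they depend on the probes as well as the transcripts, so genes are not ranked by them.

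The median within-group SD of these genes was 0.066 on the log2 scale, against 0.14 over all probe sets tested and 0.10 over the 3400 probe sets at least as bright as the dimmest member. The level moved with the SD: the genes with the 3 largest SDs, C6, F5 and Masp1, were also the dimmest. Array values can be compressed at the top of the scale, so a small SD is not shown to be a property of the genes. Ahsg, which encodes fetuin-A, an inhibitor of mineral deposition, had the smallest SD at 0.0245 and a range of 0.096 over all 35 arrays. It was followed by Serpinc1 (antithrombin) at 0.031, F10 at 0.043 and F2 (prothrombin) at 0.044. At the other end stood C6, a component of the membrane pore, with an SD of 0.56, then F5 (factor V) at 0.25, Masp1 at 0.145 and C5 at 0.12. C6 ran from 7.68 to 9.48 over the 35 arrays, and each of the 6 groups held low and high arrays.

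**Figure D1:**
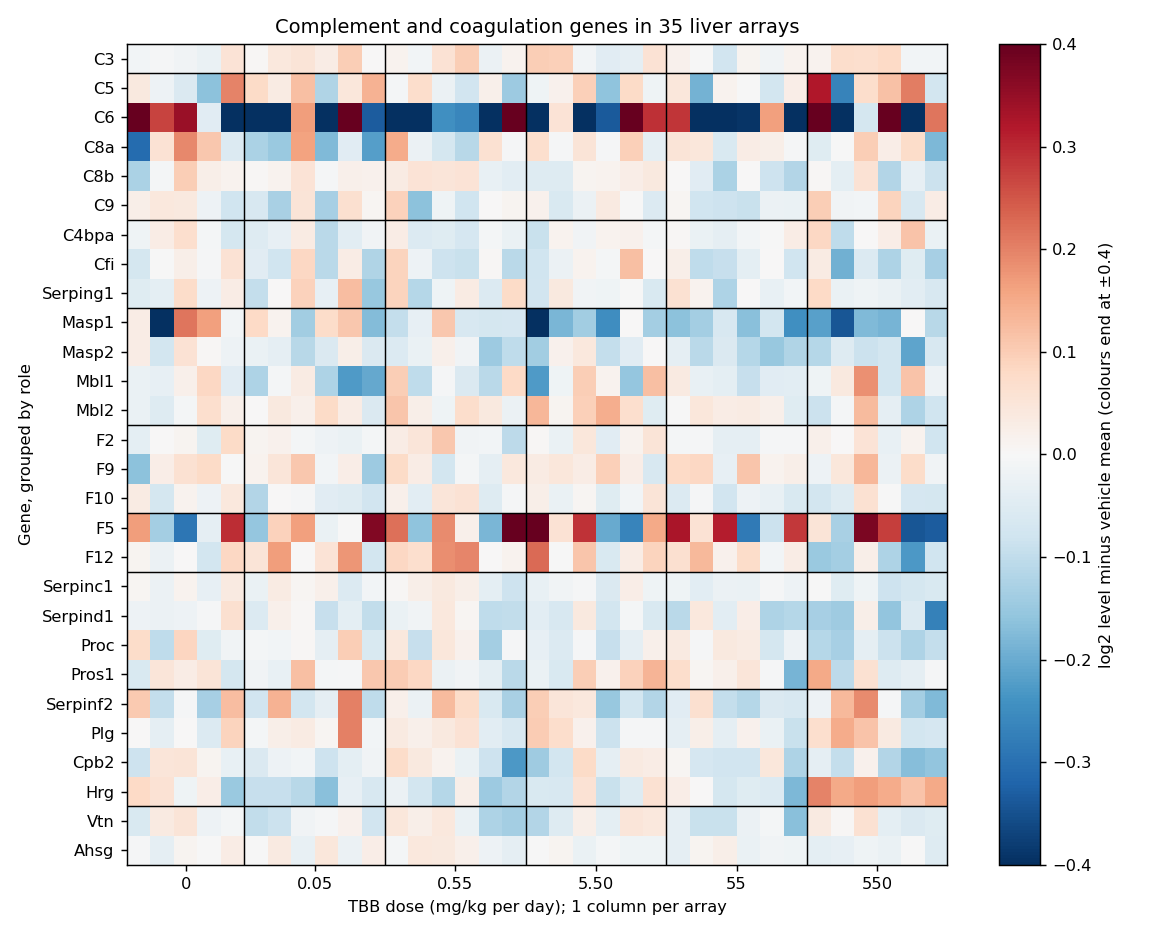
Log2 level of each of the 28 genes (rows, grouped by role with black lines) in each of the 35 arrays (columns, by dose in mg/kg per day), minus the gene's vehicle mean; colours end at ±0.4 and larger deviations share the end colours. Hrg is red in all 6 arrays of the highest dose, and C6 and F5 vary widely in every group.

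The comparison of 550 mg/kg with vehicle addressed whether 5 doses at that level changed the supply of these transcripts. None of the 28 genes passed adjusted p under 0.05 (limma, adjusted over all probe sets), where 0.499% of all probe sets were called. The linear model without variance moderation also called none, and 5 members had an unadjusted p under 0.05, which is 17.9% of them against 8.67% of all probe sets. The median absolute change was 0.035 for the 28, 0.065 over all probe sets and 0.069 over the 3400 brighter ones described above. The median change of the 28 was -0.016 on the log2 scale (0.0024 over all probe sets and -0.014 over the 3400 at least as bright as the dimmest member), with 19 negative and 9 positive; 49% of all probe sets were negative. The median was -0.035 without 550 mg/kg replicate 3 and -0.0016 without vehicle replicate 3. The 95% interval of the array signal lay within 1.2-fold of vehicle in either direction for 25 of the 28 genes, all but C6, Masp1 and F5. It lay within 1.5-fold for 27, all but C6. Each interval holds for 1 gene alone, not for the 28 jointly. Array values can be compressed at the top of the scale, where these genes lay, so transcript differences are bounded less closely. The 5 genes with an unadjusted p under 0.05 were Hrg, with a positive difference, and Serpind1, F12, Masp2 and Proc, with negative ones.

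**Figure D2:**
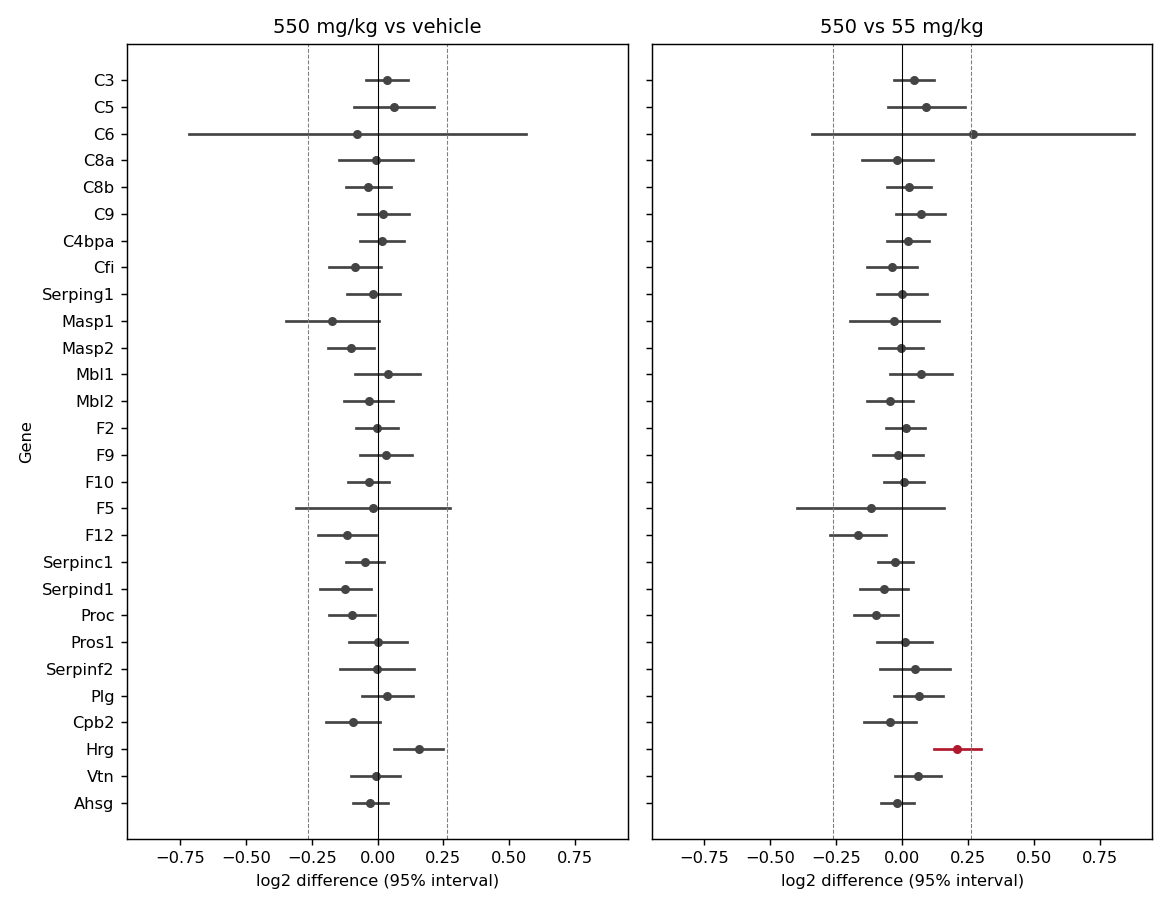
Log2 difference of each gene (point) with its 95% interval from limma (line), at 550 mg/kg against vehicle (left) and against 55 mg/kg (right); dashed lines mark 1.2-fold and red marks adjusted p under 0.05. Hrg at 550 against 55 mg/kg is the single red line, and C6 has by far the widest interval.

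Hrg encodes histidine-rich glycoprotein, an abundant plasma protein that binds heparin, plasminogen, heme and zinc and tunes coagulation and fibrinolysis. At 550 mg/kg its log2 level was lowest at 13.17, with a median of 13.20 and a highest value of 13.25. In vehicle the 5 arrays read 13.13, 13.11, 13.04, 13.08 and 12.90. The lowest array of the highest dose stood above the highest of the other 29 arrays, which was 13.13.

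Among the lower doses, Hrg ran from 12.89 to 13.02 (median 12.96) at 0.05 mg/kg and from 12.91 to 13.08 (median 12.96) at 0.55 mg/kg. It ran from 12.96 to 13.11 (median 12.99) at 5.50 mg/kg and from 12.87 to 13.08 (median 13.001) at 55 mg/kg. These 4 groups overlapped one another and vehicle, and their differences from vehicle lay between -0.093 ± 0.046 (SE) at 0.05 mg/kg and -0.025 ± 0.046 (SE) at 5.50 mg/kg, none past the threshold. Only the highest dose stood apart for this gene. Of all 31042 probe sets, 0.190% had the highest dose wholly above or wholly below the other 29 arrays, and Hrg was 1 of 28 members to do so.

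Against 55 mg/kg, Hrg rose 1.16-fold at 550 mg/kg, from a mean of 12.999 ± 0.072 (SD, n = 6) to 13.21 ± 0.027 (SD, n = 6), a log2 difference of 0.21 ± 0.044 (SE). The adjusted p was 0.012 (limma), and Hrg was the single member called in this comparison, in which 0.686% of all probe sets were called. Its arrays at the 2 doses did not overlap, as in 1.15% of all probe sets. Against vehicle the difference was 0.16 ± 0.046 (SE), or 1.11-fold (95% interval 0.061 to 0.25 on the log2 scale), and did not pass (adjusted p = 0.17, limma). It passed in 0 of 21 alternatives, with an adjusted p from 0.053 (trended and robust moderation) to 0.40 (a single array left out; limma). The comparisons with vehicle and with 55 mg/kg share the highest-dose arrays. The test of any difference among the 6 groups called Hrg (F = 8.29, adjusted p = 0.010, limma moderated F test) and no other member, where 0.741% of all probe sets were called. The call against 55 mg/kg was lost without 55 mg/kg replicate 6, the lowest array (12.87), where the difference was 0.18 (adjusted p = 0.051, limma). It was also lost with only these 2 groups fitted (adjusted p = 0.0985). Over its 22 alternatives the adjusted p ran from 0.0015 to 0.0985.

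In the RefSeq gene table of the GRCr8 rat assembly, Hrg is followed by Fetub and Ahsg, which encode the fetuins, and preceded by a gene listed as Hrg l1. Cross-hybridisation of the Hrg probe set with that neighbour was not tested. Fetub differed from vehicle by -0.038 ± 0.039 (SE) at 550 mg/kg (adjusted p = 0.86, limma) and ran from 13.33 to 13.48 there, against 13.43 to 13.51 in vehicle. Ahsg differed by -0.028 ± 0.033 (SE; adjusted p = 0.88, limma) and ran from 13.80 to 13.85, against 13.82 to 13.88. Both overlapped vehicle, and both differences were small beside that of Hrg. Whether Hrg differed from its neighbours in this was not tested. Fetub and Ahsg also read higher than Hrg, toward the top of the scale, where array values can be compressed. The hepatocyte markers had mean levels of 13.05 to 13.14 at 550 mg/kg, 13.02 to 13.23 at 55 mg/kg and 13.11 to 13.25 in vehicle; their median difference from vehicle at 550 mg/kg was -0.0072, with 6 positive and 6 negative. Their part in the Hrg values was not tested.

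**Figure D3:**
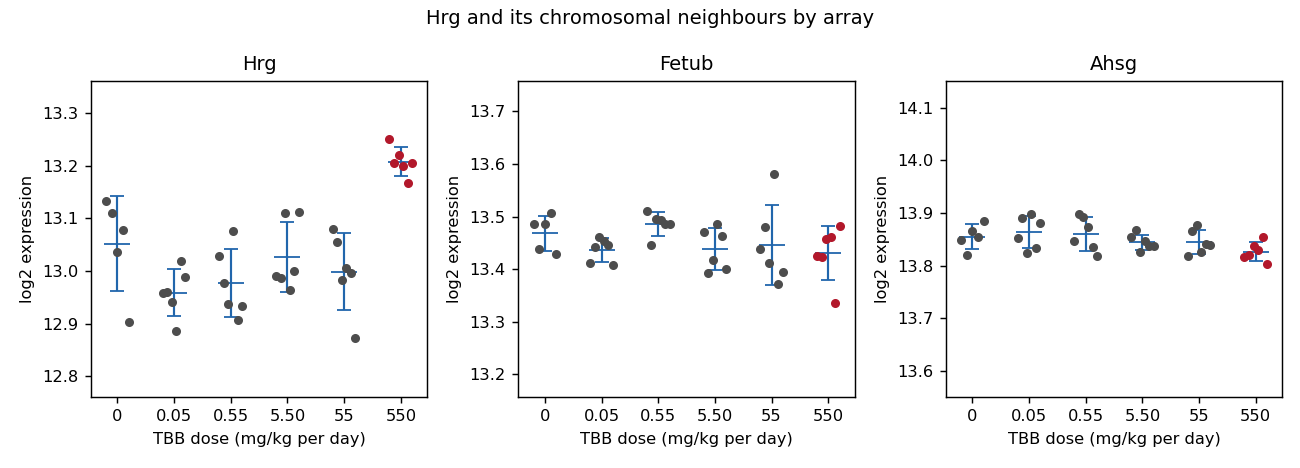
Log2 expression of Hrg and of its neighbours Fetub and Ahsg by dose (mg/kg per day; points are arrays, red at 550 mg/kg; blue bars are mean ± SD), on axes of equal length. The 6 Hrg arrays at 550 mg/kg sit between 13.17 and 13.25, above every other array, while Fetub and Ahsg overlap vehicle at every dose.

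The remaining fibrinolysis genes overlapped vehicle. Plg, the precursor of plasmin, had a vehicle mean of 13.16 ± 0.055 (SD, n = 5) and a mean of 13.20 ± 0.092 (SD, n = 6) at 550 mg/kg, a difference of 0.037 ± 0.048 (SE). Serpinf2, the plasmin inhibitor alpha-2-antiplasmin, differed by -0.0021 ± 0.069 (SE). Cpb2, a carboxypeptidase that protects fibrin from lysis, ran from 12.40 to 12.59 (median 12.46) at 550 mg/kg, with 12.49, 12.62, 12.62, 12.58 and 12.54 in vehicle. Its difference was -0.093 ± 0.051 (SE; adjusted p = 0.64, limma), with overlapping groups.

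Of the clotting factors, F12 (factor XII, which starts the contact pathway) was lowest at the highest dose. It read 12.16, 12.13, 12.15, 12.08 and 12.23 in vehicle. At 550 mg/kg it ran from 11.92 to 12.17 (median 12.02), and at 55 mg/kg from 12.14 to 12.28 (median 12.20). The 3 lower doses had means of 12.21, 12.24 and 12.22, so 4 dose groups lay above vehicle and 1 below it, with overlap in each case. F12 differed from vehicle by -0.12 ± 0.055 (SE) at 550 mg/kg (adjusted p = 0.54) and from 55 mg/kg by -0.17 ± 0.052 (SE; adjusted p = 0.16). It did not pass the F test either (adjusted p = 0.21, limma).

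F5, the cofactor that speeds thrombin formation, ranged from 9.53 to 10.33 over all arrays and differed from vehicle by -0.017 ± 0.14 (SE) at 550 mg/kg. The vitamin K-dependent factors F2, F9 and F10, the proteases of the thrombin-forming steps, differed by -0.0030 ± 0.039, 0.032 ± 0.049 and -0.034 ± 0.038 (SE). For F2 the 95% interval was -0.082 to 0.076. None of the 3 passed at any dose.

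None of the 4 anticoagulants passed at 550 mg/kg. Serpind1 (heparin cofactor II, a thrombin inhibitor) read 12.72, 12.72, 12.73, 12.74 and 12.81 in vehicle. At 550 mg/kg it ran from 12.48 to 12.77 (median 12.61), with 5 of 6 arrays below the lowest vehicle array. The difference was -0.12 ± 0.047 (SE; adjusted p = 0.38, limma), without passing.

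Proc, the precursor of activated protein C, read 12.45, 12.27, 12.46, 12.33 and 12.36 in vehicle. It ran from 12.24 to 12.34 (median 12.27) at 550 mg/kg, overlapping the lower vehicle arrays, and differed by -0.097 ± 0.044 (SE; adjusted p = 0.50, limma). Its cofactor Pros1 differed by 0.0025 ± 0.054 (SE). Serpinc1, the main inhibitor of thrombin, differed by -0.047 ± 0.035 (SE), with a 95% interval of -0.12 to 0.023. No difference between anticoagulants was tested.

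C3, the component where all complement pathways meet, was among the steadiest genes, with a vehicle mean of 13.81 ± 0.031 (SD, n = 5) and 13.85 ± 0.043 (SD, n = 6) at 550 mg/kg. The difference was 0.035 ± 0.039 (SE; adjusted p = 0.87, limma). Of the 5 terminal pathway genes none passed at any dose. C5 differed by 0.062 ± 0.075, C8a by -0.0048 ± 0.069, C8b by -0.035 ± 0.042 and C9 by 0.021 ± 0.047 (SE) at 550 mg/kg.

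C6 was a case apart because of its spread. In vehicle it read 9.38, 9.23, 9.31, 8.92 and 7.97. At 550 mg/kg it ran from 8.13 to 9.48 (median 9.03), and at 0.05 mg/kg from 7.68 to 9.40 (median 8.31). Its groups overlapped throughout. Its largest difference from vehicle was -0.53 ± 0.31 (SE) at 0.05 mg/kg (adjusted p = 0.85, limma), and at 550 mg/kg the 95% interval ran from -0.72 to 0.56, the widest in the set.

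The complement inhibitors C4bpa, a cofactor that binds C4b, and Serping1, the C1 inhibitor, differed by 0.016 ± 0.041 and -0.016 ± 0.049 (SE) at 550 mg/kg. Cfi, the protease that cuts C3b and C4b, read 12.80, 12.87, 12.89, 12.86 and 12.93 in vehicle and ran from 12.68 to 12.90 (median 12.78) at the highest dose. Its difference of -0.087 ± 0.049 (SE) did not pass (adjusted p = 0.655, limma). Vtn, an adhesive glycoprotein that blocks the terminal pathway, differed by -0.0078 ± 0.045 (SE) at 550 mg/kg and by -0.069 ± 0.045 (SE) at 55 mg/kg, the third smallest p there (adjusted p = 0.999, limma).

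In the lectin pathway, the sugar-binding Mbl1 and Mbl2 start the cascade and the proteases Masp1 and Masp2 carry it on. Masp2 read 10.97, 10.87, 11, 10.95 and 10.92 in vehicle, ran from 10.79 to 10.91 (median 10.83) at 55 mg/kg and from 10.73 to 10.89 (median 10.86) at 550 mg/kg. Most arrays of both doses thus lay below most vehicle arrays, with overlap. The differences were -0.097 ± 0.043 (SE) at 55 mg/kg (adjusted p = 0.999) and -0.10 ± 0.043 (SE) at 550 mg/kg (adjusted p = 0.47, limma). Its 2 other probe sets, with means of 10.6 and 5.80, differed by -0.071 ± 0.046 and 0.12 ± 0.33 (SE) at 550 mg/kg. The brighter of these thus had the same direction, and the dim one was too variable to read.

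Masp1 read 9.45, 9.03, 9.64, 9.59 and 9.41 in vehicle. It ran from 8.85 to 9.43 (median 9.26) at 5.50 mg/kg, from 9.18 to 9.36 (median 9.27) at 55 mg/kg and from 9.08 to 9.43 (median 9.24) at 550 mg/kg. Its differences were -0.21 ± 0.087, -0.14 ± 0.087 and -0.17 ± 0.087 (SE) at these doses, and none passed (adjusted p = 0.998, 0.999 and 0.59, limma). Without vehicle replicate 2, the array at 9.03, the differences at 55 and 550 mg/kg were -0.24 and -0.27 (adjusted p = 0.64 and 0.14). Without vehicle replicate 3 the difference at 55 mg/kg was -0.089, and without 5.50 mg/kg replicate 1 that at 5.50 mg/kg was -0.14. The 2 dimmer probe sets of the gene, with means of 6.27 and 6.10, did not follow: at 550 mg/kg they differed by 0.0365 ± 0.075 and 0.075 ± 0.087 (SE), and at 55 mg/kg by 0.030 ± 0.075 and 0.24 ± 0.087. The direction for Masp1 therefore rests on its brightest probe set.

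Mbl1 read 11.005, 11.001, 11.05, 11.12 and 10.99 in vehicle and ran from 10.81 to 11.06 (median 10.91) at 0.05 mg/kg, its lowest group, a difference of -0.11 ± 0.061 (SE; adjusted p = 0.85, limma). At 550 mg/kg it differed by 0.038 ± 0.061 (SE). Mbl2 differed by 0.067 ± 0.045 (SE) at 5.50 mg/kg, where it ran from 12.32 to 12.51 (median 12.45) against 12.32 to 12.44 in vehicle, and by -0.034 ± 0.045 (SE) at 550 mg/kg. Neither lectin passed at any dose.

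**Figure D4:**
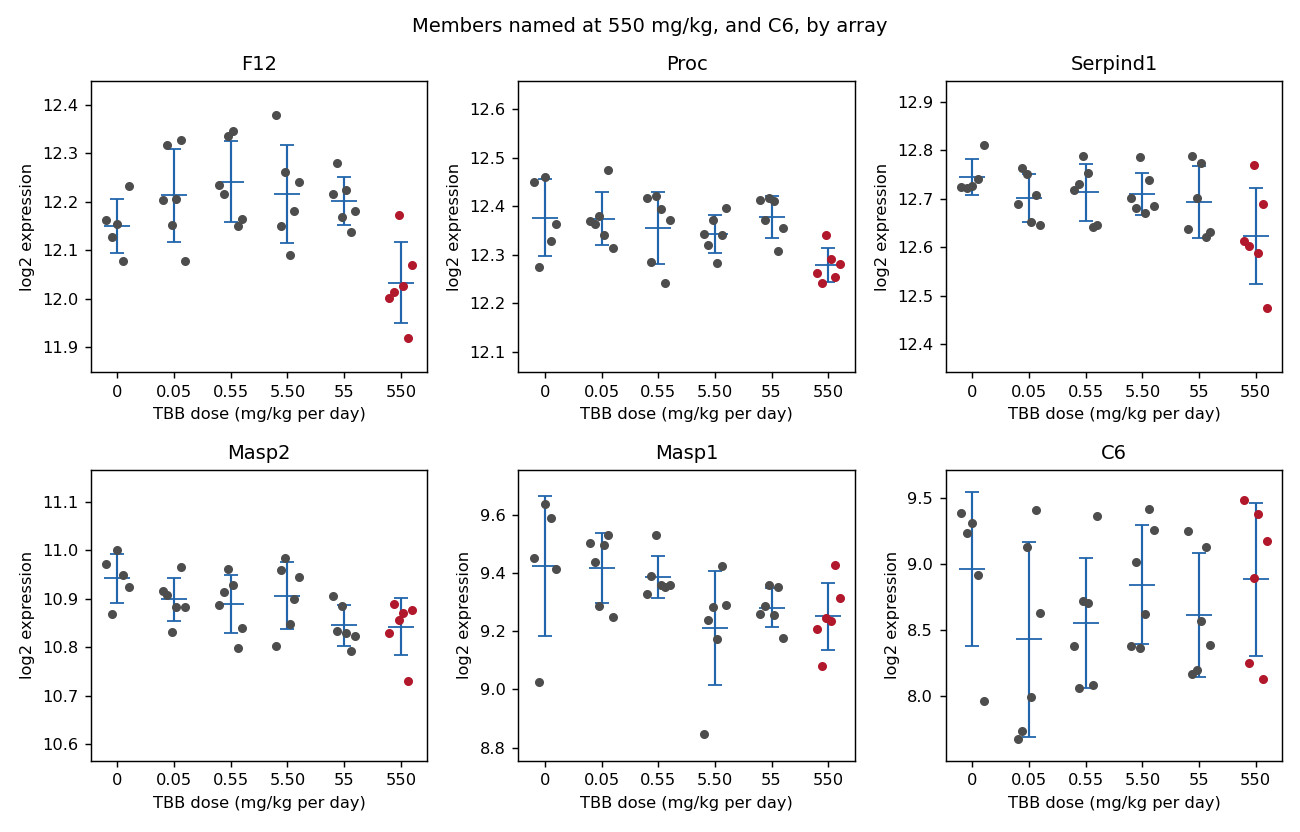
Log2 expression by dose (mg/kg per day) of 5 genes with small p at the highest dose and of C6, the most variable gene; points are arrays, red at 550 mg/kg, and blue bars are mean ± SD. The y axes span 0.6 for F12, Proc, Serpind1 and Masp2, 1.0 for Masp1 and 2.2 for C6, and every 550 mg/kg group overlaps vehicle.

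At the lower doses no member was called. The share of all probe sets called was 0% at 0.05, 0.55 and 5.50 mg/kg and 0.00644% at 55 mg/kg (limma), and the unmoderated model called no member at these doses either. With an unadjusted p under 0.05 there were 0 members at 0.05 mg/kg, 0 at 0.55 mg/kg, 1 at 5.50 mg/kg (Masp1) and 1 at 55 mg/kg (Masp2). A single member is 3.57% of the 28. The shares over all probe sets were 6.05%, 3.86%, 4.95% and 4.2% in order of dose, so these counts did not exceed the background. The median changes of the 28 were -0.0057, -0.00295, -0.010 and -0.0275 on the log2 scale in order of dose, against 0.0043, 0.0026, 0.0020 and 0.00145 over all probe sets. Over the 3400 probe sets at least as bright as the dimmest member they were -0.021, -0.00705, -0.0055 and -0.0105. Over the alternatives the first 3 medians of the 28 changed sign, with ranges of -0.029 to 0.0034, -0.023 to 0.0042 and -0.016 to 0.0035. The fourth median of the 28 ran from -0.035 to -0.0195. At 55 mg/kg 22 of 28 were negative, where 49.3% of all probe sets were. The 5 comparisons with vehicle share the same 5 vehicle arrays. The mean deviation of the 28 genes from vehicle ran from -0.020 to 0.038 in the vehicle arrays, from -0.068 to 0.021 at 55 mg/kg and from -0.073 to 0.050 at 550 mg/kg, so the groups overlapped.

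A slope on dose rank, from 0 for vehicle to 5 for 550 mg/kg, asked whether any gene moved steadily with dose. No member passed (smallest adjusted p = 0.25, limma), where 0.171% of all probe sets were called, and the unmoderated model called none. An unadjusted p under 0.05 was seen for 4 members, 14.3% of them against 9.42% of all probe sets. Hrg had a slope of 0.029 ± 0.0098 (SE) per dose step (adjusted p = 0.25, limma), although its means at the 4 lower doses were below vehicle. Masp1 had a slope of -0.042 ± 0.014 (adjusted p = 0.27) and Masp2 of -0.018 ± 0.0070 (SE; adjusted p = 0.35, limma). Both values belong to the brightest probe set of the gene: averaged over all probe sets, the slopes were -0.0056 for Masp1 and -0.0062 for Masp2 (adjusted p = 0.85 and 0.94, limma). The Masp2 average includes the dim, variable probe set, with a slope of 0.0074 ± 0.053 (SE). The other Masp2 probe set had a slope of -0.0080 ± 0.0080 (SE; adjusted p = 0.84, limma).

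The other genes of these pathways were read from lists chosen with earlier results of these data known. Of 19 measured complement genes outside the set, 1 fell and 0 rose at 550 mg/kg, with a median of -0.049 and 14 negative. There 49% of all probe sets were negative. Against the same vehicle arrays 14, 16, 13 and 13 of these genes were negative at 0.05, 0.55, 5.50 and 55 mg/kg. Medians at those doses were -0.0565, -0.078, -0.089 and -0.0335. The gene that fell was C8g, the lipocalin subunit of the C8 complex that also contains the products of C8a and C8b. It read 12.35, 12.34, 12.37, 12.30 and 12.38 in vehicle and ran from 12.06 to 12.29 (median 12.12) at 550 mg/kg, without overlap. A wholly separate pair of groups was seen in 1.34% of all probe sets in this comparison, and among the 28 members in Hrg alone.

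C8g fell by 0.21 ± 0.047 (SE) on the log2 scale (adjusted p = 0.0305, limma), while C8a differed by -0.0048 and C8b by -0.035. The differences between the subunits were not tested. Leaving out a single array ended the call of C8g in 9 of 11 cases, namely replicates 1, 2, 3 and 5 of vehicle and replicates 1, 2, 4, 5 and 6 of the highest dose (adjusted p 0.050 to 0.090, limma). It was also lost with only the 2 groups fitted (adjusted p = 0.23). Over its 21 alternatives, added after seeing the data, the adjusted p ran from 0.0061 to 0.23 and the change from -0.24 to -0.19.

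The 3 subunits of C1q, which macrophages make, differed by -0.22 ± 0.20 (C1qa), -0.16 ± 0.19 (C1qb) and -0.22 ± 0.18 (C1qc; SE) without passing. They also stand on the Kupffer cell list, of which 9 of 9 measured markers were negative at 550 mg/kg (median -0.22) and 0 passed. Against the same vehicle arrays 8, 9, 8 and 7 of the 9 were negative at 0.05, 0.55, 5.50 and 55 mg/kg. Medians there were -0.12, -0.25, -0.11 and -0.060. Of all probe sets, 48.1% to 49.3% were negative in the comparisons with vehicle. The mean level of that list was 8.63 to 9.03 in vehicle and 8.22 to 8.94 at 550 mg/kg. Its part in any result here was not tested. Colec11, a collectin of the lectin pathway, differed by -0.27 ± 0.095 (SE; adjusted p = 0.31, limma).

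Of 18 other measured coagulation and fibrinolysis genes 7, 9, 13 and 10 were negative at 0.05, 0.55, 5.50 and 55 mg/kg. Medians at those doses were 0.0022, 0.00056, -0.019 and -0.0024. None of the 18 passed at 550 mg/kg, with a median of -0.058 and 12 negative, where 49% of all probe sets were negative. The fibrinogen chains Fga, Fgb and Fgg differed by -0.10 ± 0.038, -0.068 ± 0.035 and -0.023 ± 0.034 (SE). The gene with the smallest p was Serpina5, the protein C inhibitor, at 0.30 ± 0.093 (SE; adjusted p = 0.20, limma). Of 6 measured genes of the vitamin K cycle and of vitamin K breakdown, 1 rose and 0 fell. Nqo1, a quinone reductase, rose 3.39-fold (adjusted p = 2.8e-09, limma). Vkorc1, which recycles the vitamin for F2, F9, F10, Proc and Pros1, differed by -0.22 ± 0.056 (SE; adjusted p = 0.060, limma). Vkorc1 lay near the threshold: it passed in 8 of 21 alternatives added after seeing the data, with an adjusted p from 0.021 (trended and robust moderation) to 0.32 (only the 2 groups fitted). Ggcx, which carries out the modification, differed by -0.011 ± 0.068 (SE).

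Of 13 measured liver transcription factors, 0 passed at 550 mg/kg, with a median of -0.0495. Hnf4a and Cebpa, which drive many genes of secreted liver proteins, differed by -0.049 ± 0.13 and -0.0035 ± 0.15 (SE). Among the 12 hepatocyte markers Apoa1 fell by 0.51 ± 0.062 (SE; adjusted p = 7.3e-06, limma) and no other passed, with a median of -0.0072. No marker passed among 8 endothelial, 8 stellate cell, 5 cholangiocyte, 7 lymphocyte, 3 neutrophil and 3 red blood cell genes, with medians of -0.064, -0.10, -0.038, -0.048, -0.057 and -0.455. The red blood cell markers had mean levels of 7.79 to 8.25 in vehicle and 7.46 to 7.87 at 550 mg/kg, and their part in the values above was not tested.

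Some pairs of these genes varied together from array to array within groups, while most did not pass the test. After each group's mean was removed, all 378 pairs of the 28 genes were correlated over the 35 arrays, with 100000 permutations of the arrays within groups and Benjamini-Hochberg adjustment over the pairs. The median Pearson r was 0.15 and the median Spearman rho 0.15, and 28 pairs passed on both measures, 27 positive and 1 negative. The genes of a pair were read on the same arrays, and pairs of other genes were not examined. Cpb2 and F12 had 5 partners each, the largest number, and 7 genes had none, among them F5, Mbl1 and Mbl2.

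The highest value joined Plg with Serpinf2, plasminogen with the inhibitor of plasmin. Pearson r was 0.84 and Spearman rho 0.84 (each permutation p = 1e-05, the smallest these permutations can give; adjusted p = 0.00076 and 0.0019), and r was 0.81 without the 2 arrays farthest from the median of Serpinf2. Vtn and Cpb2 followed with r = 0.83 and rho = 0.80 (each permutation p = 1e-05; adjusted p = 0.00076 and 0.0019; r = 0.78 without 2 arrays). C8a and F9 had r = 0.755 and rho = 0.68 (permutation p = 1e-05 and 4e-05; adjusted p = 0.00076 and 0.0038; r = 0.645 without 2 arrays). C6 varied with C9, its partner in the membrane pore, at r = 0.63 and rho = 0.62 (permutation p = 0.00054 and 0.00070; adjusted p = 0.012 and 0.017; r = 0.57 without 2 arrays). It was the single pair of the 10 among C5, C6, C8a, C8b and C9 to pass on both measures; C8a with C8b had r = 0.50 and rho = 0.31 (permutation p = 0.0099 and 0.081; adjusted p = 0.078 and 0.27; r = 0.33 without 2 arrays). The negative pair was C9 with Ahsg, at r = -0.66 and rho = -0.615 (permutation p = 0.00056 and 0.0010; adjusted p = 0.012 and 0.019; r = -0.63 without 2 arrays). Hrg had 1 partner, Pros1, at r = 0.56 and rho = 0.55 (permutation p = 0.00090 and 0.0016; adjusted p = 0.014 and 0.026; r = 0.47 without 2 arrays).

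**Figure D5:**
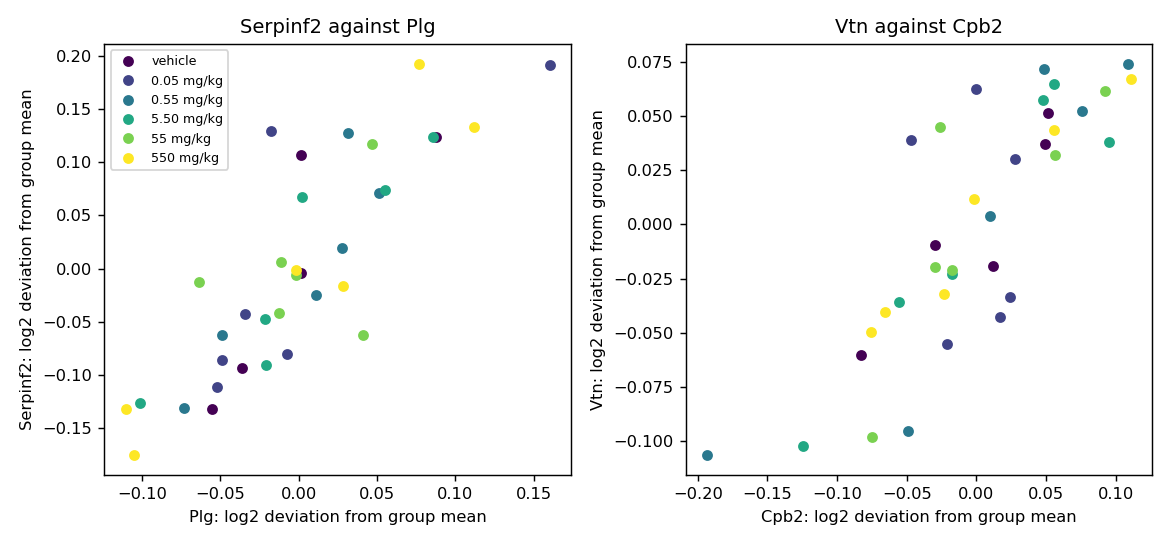
Within-group deviations (log2 level minus the mean of its dose group) of Serpinf2 against Plg (left, r = 0.84) and of Vtn against Cpb2 (right, r = 0.83); points are the 35 arrays, coloured by dose group. The r values are over all 35 arrays; none was computed within a dose.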

How the data were processed

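The deposited values are log2 expression per probe set. The submitters' processing notes name RMA and affy as the authors' tools; for their versions, the chip definition and filters, the sources used here give nothing. No further normalisation was applied. Array values can be compressed at the ends of the scale, and the quantile step of RMA hides changes shared by most genes. Of 31099 probe sets, 57 controls were left out and 31042 tested. Gene names came from the platform annotation, and the symbols of all 28 genes matched RefSeq by Entrez identifier.

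Linear models from limma 3.58.1 in R 4.3.3 (moderated by eBayes) fitted 1 mean per group over 35 arrays, and separately a slope on dose rank, two-sided, with Benjamini-Hochberg adjustment over all probe sets and a threshold of 0.05. Intervals are 95%. The fit was run on simulated data with independent normal noise, and the check covered only the largest added shift and false calls. How often it calls differences as small as those of the members is not given here. Precision is limited by how many arrays there are: the median 95% half-width at 550 mg/kg was 0.097 for these genes and 0.17 over all probe sets. Python 3.11.15 ran the permutations and figures.

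Alternatives were a dim filter, array medians, cyclic loess, other variance models, 2-group fits, array weights, a replicate block, single arrays left out and other probe set choices. Values by array are given for called members, otherwise for the 8 smallest p at 550 mg/kg and 3 at each other dose and for the slope. Also named were extremes of level (4 each way) and of spread (4 each way), and, for each pathway list, called genes or the smallest p. Some further members and list genes are described by role. The members and lists, and so the lists of pathway, transcription factor and cell type genes, were chosen with earlier results of these data known.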

Additional observations from a re-analysis of the deposited data

Results flagged for a closer look

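In 8 of the 168 combinations of gene and group checked, 1 array stood far from the rest of its group, about the 1 in 20 that chance gives. In vehicle, replicate 5 was high for C3 (13.87, next 13.81) and for Serpind1 (12.81, next 12.74). At 0.05 mg/kg, replicate 5 was high for Plg (13.36, next 13.20), and at 0.55 mg/kg replicate 3 was high for Masp1 (9.53, next 9.39). At 5.50 mg/kg, replicate 1 was low for C4bpa (12.86, next 12.94). At 55 mg/kg, replicate 3 was low for C3 (13.74, next 13.80) and replicate 6 for Pros1 (10.81, next 10.996). At 550 mg/kg, replicate 1 was high for Serping1 (12.36, next 12.26).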

How the results depend on the processing

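No member passed against vehicle at any dose, or for the slope, in any alternative run (21 for each dose, 20 for the slope). The F test called 1 member in all 14 of its alternatives. In these only vehicle arrays were left out, so its dependence on single dosed arrays was not tested. The number called at 550 against 55 mg/kg was 1 in 20 of 22 alternatives. It was 0 with only the 2 groups fitted, and leaving out 1 array gave 0 to 1; the first fit has fewer samples, and otherwise the cause was not tested. Among the other pathway and cell type genes, 3 were called at 550 mg/kg, 2 to 6 over the alternatives and 6 with no variance moderation (C8g, Serpina1, Vkorc1, Nqo1, Ttr and Apoa1; the cause was not tested). These last were added after seeing the data. The Masp1 difference at 55 mg/kg turned from -0.14 to 0.0442 when its probe sets, which differ in sign, were averaged. The median change at 550 mg/kg ran from -0.035 to -0.0016.

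Replicate numbers did not pair the arrays: the deviations of 85 same-numbered pairs had correlations of -0.31 to 0.27 (median -0.0092), 17 of them over 0.1. The 425 pairs with different numbers had correlations of -0.37 to 0.36 (median -0.00098), 95 of them over 0.1. Only 7 of 35 arrays correlated best with their own number. With the replicate block, 1 member was called at 550 against 55 mg/kg (Hrg, adjusted p = 0.021, limma) and 0 against vehicle at every dose. C6, with the largest SD, has the widest interval at 550 mg/kg.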
